A study of Mus musculus with 6 samples.

Results

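The windows described here are the 241 stretches of 1 Mb on the mouse autosomes with the highest density of deposited peaks for thyroid hormone receptor α (TRα), out of 2412 autosomal windows that held at least 1 peak. Chromosomes 1 to 19 were divided into windows of 1 Mb from their first base, and each peak was placed by its summit. The number of peaks in a window was divided by the autosomal peaks of its list, this share was averaged over the 6 lists, and the top 10% of windows were kept. They are called dense windows below. Their density chose them, so it is given as a description and without a test.

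The data came from chromatin immunoprecipitation and sequencing (ChIP-seq) of gastrocnemius, the large muscle of the calf, with an antibody to TRα. The 3 groups were mice aged 6, 15 or 21 months, with 2 mice in a group and 1 peak list per mouse, called against that mouse's own input library. The labels used here state no genotype, strain, sex or treatment, and age is the only difference the labels name between the groups. The lists hold binding peaks and no expression, so the labelled tissue could not be set against marker levels. Peaks were admitted at a p of about 0.01 with no limit on q, and the median deposited fold enrichment over input was 2.73 to 3.14 per list.

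TRα is a nuclear receptor that binds DNA at short response elements, usually paired with a retinoid X receptor, and represses or activates nearby genes according to whether thyroid hormone is bound. It is the main thyroid hormone receptor of skeletal muscle, where the hormone sets contraction speed, fibre type, calcium handling and energy use. Occupancy by a nuclear receptor is usually described site by site. A density over 1 Mb describes instead how the whole list of peaks is laid out along the chromosomes, with weak and strong peaks counted alike.

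The dense windows held 59482 of the 466412 autosomal peaks, or 12.8%, in 10% of the windows. Their density had a median of 5.18 peaks per 10000 autosomal peaks of a list and ranged from 4.97 to 10.2. The other 2171 windows had a median of 4.09 and reached 4.97. In numbers of peaks over the 6 lists, the median dense window held 240 and the median other window 191. The gap between a typical dense window and a typical other window was therefore small, and only the first 10 windows, from 6.95 to 10.2, stood well above the remaining 231, which lay between 4.97 and 6.30.

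The lists differed in length. Autosomal peaks numbered 75926 and 100329 in the mice of 6 months, 94675 and 28491 in those of 15 months and 85760 and 81231 in those of 21 months, with replicate 1 named first here and below. An average window therefore held 31.5 to 41.6 peaks in 5 of the mice but 11.8 in replicate 2 at 15 months, and a window's value in the short list rests on few peaks. The variance of peaks per window was 1.48 to 2.50 times the mean in the 6 lists, and 1.34 to 2.43 times without the 10 densest windows. Placing peaks at random with the same expected number in every window would give a ratio of 1. Sparse windows raise the ratio as well as dense ones. The sparsest held 4 peaks over the 6 lists, beside a median of 196, and the ratio without sparse windows was not computed. Across the 2412 windows the densities of pairs of lists had Pearson's r from 0.207 to 0.545 over 15 pairs, and from 0.449 to 0.545 over the 10 pairs without the short list. Windows are not independent replicates, so no p is given.

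At the threshold the ranking had no step. The last 3 windows inside were chr9:122000001-123000000, chr3:19000001-20000000 and chr9:112000001-113000000, at 4.9685, 4.9669 and 4.9656 per 10000. The first 3 outside were chr1:44000001-45000000, chr1:48000001-49000000 and chr4:124000001-125000000, at 4.9651, 4.9649 and 4.9649. Single mice differed far more than these means. For the last window inside, the values were 4.61 and 4.78 in the mice of 6 months, 5.49 and 5.97 in those of 15 months and 5.25 and 3.69 in those of 21 months. All coordinates are GRCm39.

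The densest autosomal window was chr5:94000001-95000000, with 443 peaks over the 6 lists. It held 8.30 and 9.97 peaks per 10000 in the mice of 6 months, 8.34 and 16.1 in those of 15 months and 7.81 and 10.8 in those of 21 months, a mean of 10.2. Its right neighbour, chr5:95000001-96000000, ranked the seventh with a mean of 8.03 and a range over mice of 5.66 to 10.5. In both windows the highest value came from replicate 2 at 15 months, the shortest list, and every mouse was above the median window of 4.18.

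A second group lay on chromosome 7, where 3 windows in a row covered chr7:20000001-23000000 with a mean density of 8.58. The highest of them, chr7:21000001-22000000, held 9.09 and 8.37 per 10000 in the mice of 6 months, 8.45 and 11.2 in those of 15 months and 8.28 and 8.00 in those of 21 months. The mice lay closer together here than in the chromosome 5 window, and 5 of the 6 were between 8.00 and 9.09. The windows on either side of it held means of 8.84 and 8.01.

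The longest unbroken run of dense windows was chr14:14000001-20000000, which holds 6 windows with a mean of 7.02. Its densest member, chr14:17000001-18000000, held 8.69 and 9.27 per 10000 in the mice of 6 months, 8.77 and 10.5 in those of 15 months and 6.53 and 8.86 in those of 21 months. The next 2 windows to the right had means of 8.25 and 7.88. In both, every mouse again exceeded the median window, with a lowest value of 5.83 in replicate 1 at 21 months and a highest of 11.2 in replicate 2 at 6 months.

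A pair of the 10 windows depended more on a single list. The window chr1:85000001-86000000 held 7.90 and 7.08 per 10000 in the mice of 6 months, 6.87 and 14.4 in those of 15 months and 6.18 and 6.40 in those of 21 months. The window chr4:61000001-62000000 held 6.06 and 6.88, then 5.18 and 12.3, then 5.25 and 6.03. In both, replicate 2 at 15 months was the highest mouse by a wide margin, and the other 5 mice lay close together above 5. The chromosome 1 window also differed in its input. Its peaks had a median local background, meaning the input signal expected at a peak relative to the lowest level in its list, of 2.38, and 32 of its 342 peaks had a background over 5 times that level. The median for all windows was 1.03, and the part of this background in the window's density was not tested.

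**Figure D1:**
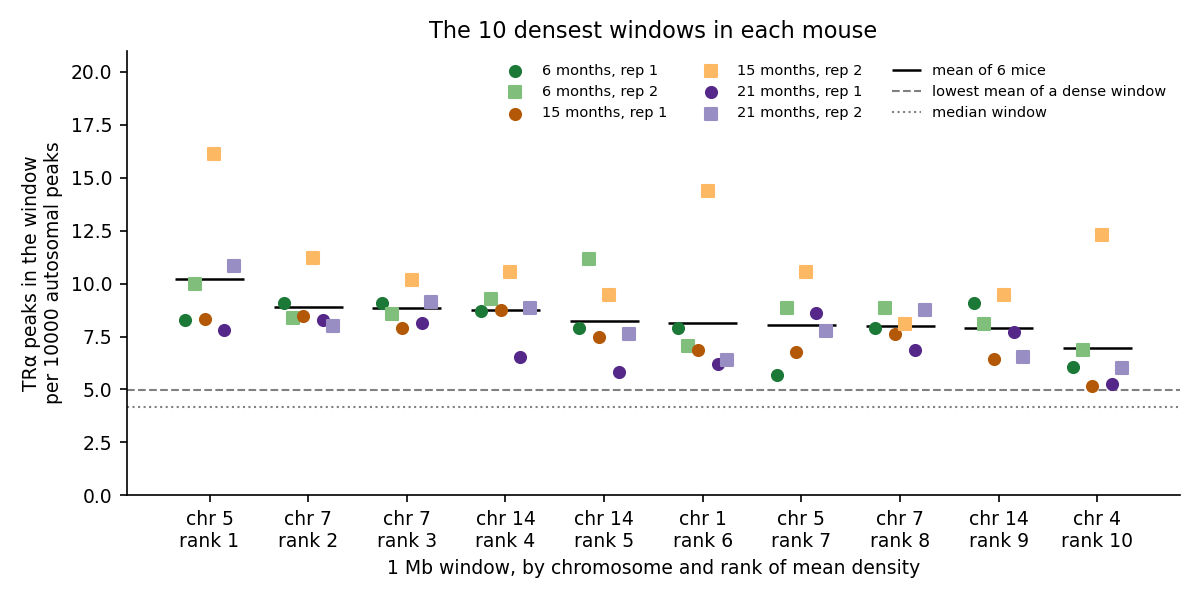
Density of TRα peaks in the 10 densest 1 Mb windows, in peaks per 10000 autosomal peaks of a list, with 1 point per mouse and a black line at the mean of 6 mice. Every point lies above the dotted line at the median window (4.18), and replicate 2 at 15 months gives the highest points, 16.1, 14.4 and 12.3.

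The 10 densest windows held many weak peaks and no strong one. None of their 3758 peaks reached a deposited fold enrichment over input of 10, which allows a share of up to 0.0798% from the limit of 3 peaks and covers counting error only. Over all windows 0.186% of the peaks reached it, and they lay in 338 of the 2412 windows. Such peaks recur at the same positions in several lists, while the limit treats each peak as independent and is thus too narrow. A count of 0 in 10 windows therefore cannot show a lack of strong peaks. The highest fold in any of the 10 windows was 6.96, and their peaks with a deposited q of at most 0.05 numbered 147, or 3.91% of their peaks. Their median local background lay at 1.22, above the 1.03 of all windows. Each of the 10 had a dense window beside it. None held a position with a peak in 5 or more lists, and none held a peak to which the deposited text assigned a gene.

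The densest windows recurred between mice, and most of the others did so in part. Windows were also ranked within each list alone, with ties included, and 11 of the 241 were in the top 10% of all 6 lists, 9 of them among the 10 densest. Another 6 were in the top 10% of 5 lists, 27 of 4, 68 of 3, 98 of 2 and 31 of 1. The most frequent case was thus a window in the top 10% of 2 of the 6 mice. In all, 117 dense windows (48.5%) exceeded the median of their list in all 6 mice, beside 44 of the other windows (2.03%). These counts describe the choice and were not tested. Chosen from peaks with q of at most 0.05 alone, the densest 10% numbered 233 windows, of which 67 were among the 241 (28.8% of the 233 and 27.8% of the 241).

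To measure the density in a list that took no part in the choice, the windows were chosen on 5 lists and read in the sixth. Windows chosen without replicate 1 at 6 months held a mean of 38.5 of its peaks, beside 30.7 in the other windows, a ratio of 1.25. For replicate 2 at 6 months the means were 49.4 and 40.7 peaks, a ratio of 1.21. At 15 months the chosen and other windows held 45.0 and 38.6 peaks in replicate 1 and 14.0 and 11.6 in replicate 2, with ratios of 1.16 and 1.21. At 21 months they were 42.5 and 34.8 in replicate 1 and 40.0 and 33.0 in replicate 2, with ratios of 1.22 and 1.21. The windows chosen on the other mice were thus denser in 6 of 6 mice, and by a similar factor. Over the 6 mice the mean log2 ratio was 0.28 ± 0.0337 (SD, n = 6), a ratio of 1.21, with a two-sided exact sign-flip permutation p of 0.03125, the smallest that 6 mice allow. The 6 choices share lists, so the ratios are not fully independent. The other windows include sparse ones, down to 4 peaks over the 6 lists, which lower the mean beside the chosen windows. Their part in the ratio was not tested. The p bears only on whether the lists share a layout along the chromosomes, and such sharing is a weak requirement.

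The held-out excess was smaller than the one seen with all lists, and it was spread over many windows. Of the chosen windows, 68.0 to 79.3% exceeded the median of the list left out, and of the other windows 41.7 to 47.9%. The chosen windows held 11.4 to 12.2% of that list. In replicate 2 at 15 months the share was 14.1% in the 241 dense windows and 11.9% in the windows chosen without it. The 6 choices had 98 windows in common, out of 422 chosen at least once. Without the 10 densest windows the mean ratio was 1.18, and without chromosome 1 it was 1.21, both above 1 in 6 of 6 mice, with the same p from the exact permutation test.

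**Figure D2:**
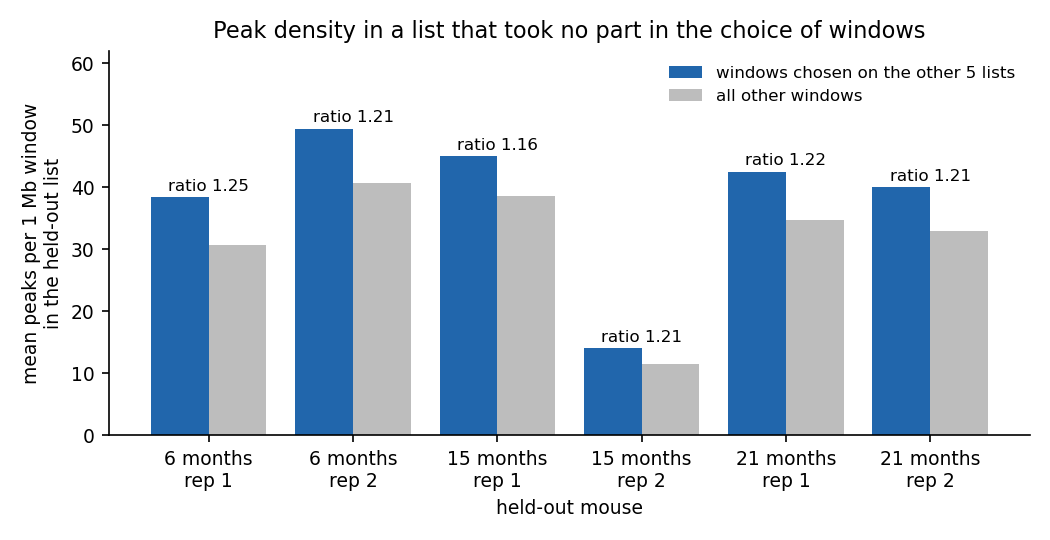
Mean peaks per 1 Mb window in each mouse's list, in the 241 windows chosen on the other 5 lists (blue) and in the other 2171 (grey), with their ratio above the bars. The blue bar is higher in all 6 mice, with ratios from 1.16 to 1.25.

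The dense windows were unevenly spread over the chromosomes. Chromosome 1 held 41 of them in 193 windows (21.2%), chromosome 3 held 27 in 157 (17.2%) and chromosome 14 held 18 in 123 (14.6%). At the other end, chromosome 17 held 3 in 93, chromosome 19 held 1 in 59 and chromosome 16 held 0 in 95. The best window of chromosome 16 ranked 329 with a mean of 4.86 per 10000, just under the threshold. Along the chromosomes the dense windows showed little preference. With each chromosome divided into 3 equal lengths, the first, middle and last held 34.9, 35.7 and 29.5% of them, beside 33.5, 33.1 and 33.4% of the other windows.

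**Figure D3:**
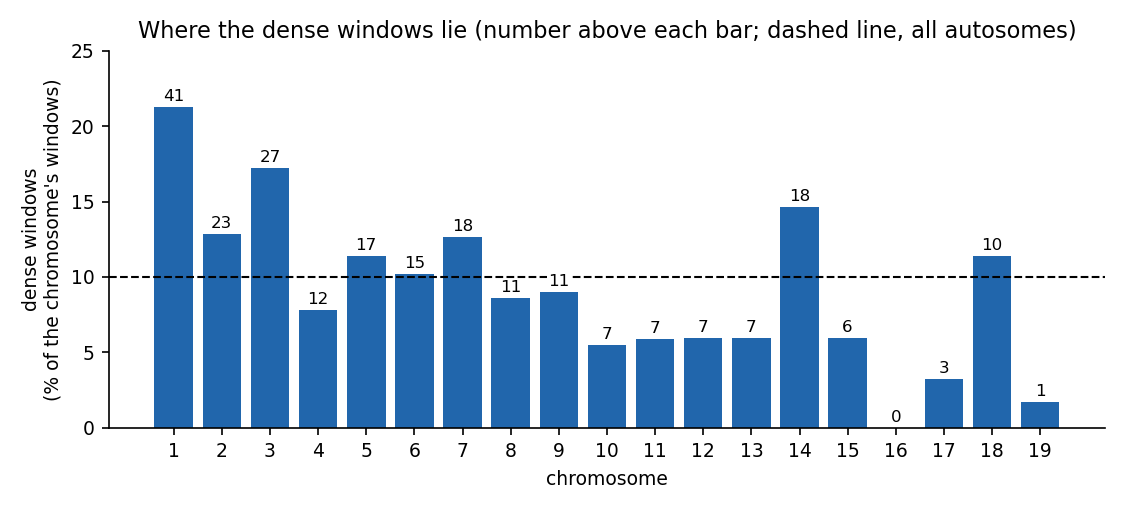
Dense windows as a percentage of the windows of each autosome, with their number above the bar and a dashed line at the 10% of all autosomes. Chromosome 1 is the highest bar at 21.2%, and chromosome 16 has 0.

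Dense windows had a dense neighbour more often than other windows did, though most of them stood alone. They formed 186 runs, of which 148 were single windows, 28 held 2 windows, 6 held 3 and 2 held 4. A run of 5 covered chr1:100000001-105000000, and a run of 6 was the stretch on chromosome 14 described above. In all, 93 dense windows (38.6%) had a dense neighbour, and 348 of the other windows (16.0%) did. Within a window the peaks were spread out and not piled up at a few places. The fullest 100 kb held a median of 13.8% of a dense window's peaks, beside 14.2% in the other windows, and the fullest 10 kb held 3.35 and 3.56%. Of the 100 stretches of 10 kb in a window, a median of 89 held a peak in dense windows and 84 in the others. These values depend on the number of peaks in a window, which chose the windows, so the differences are a description only.

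Beyond their number, the peaks in dense windows were compared with the remaining autosomal peaks of the same mouse. Of 7 measures, 4 differed in the same direction in 6 of 6 mice. Peaks in dense windows had a q of at most 0.05 more often and were wider, and a fold of at least 10 was less frequent. They were also overlapped more often by a peak of another mouse, a direction that the choice of windows with many peaks favours, so this measure is given as a description. The share with a fold of at least 10 is given as a description too. Its denominator is the number of peaks, which chose the windows, so the choice favours a lower share. The share with q of at most 0.05 has the same denominator, and its peaks were counted in the choice as well. The p given for that share is therefore not independent of the choice. The q and width measures each reached the smallest p that 6 mice allow in the two-sided exact sign-flip permutation test, 0.03125. After Benjamini-Hochberg adjustment over all 7 measures the exact permutation p was 0.0547 for each, so neither passed 0.05. Every list was then trimmed to the length of the shortest by deposited p and the windows were chosen again. The q, width and fold measures then no longer pointed the same way in 6 of 6 mice.

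The share of peaks with q of at most 0.05 inside and outside dense windows was 1.46 and 1.08% in replicate 1 at 6 months and 3.88 and 2.86% in replicate 2. At 15 months it was 1.93 and 1.58%, and 4.67 and 4.09%. At 21 months it was 2.85 and 2.38%, and 2.38 and 1.83%. Mice differed more from each other than the windows did within a mouse, and the dense windows were higher in each with the lists as deposited. The mean difference was 0.556 ± 0.244 percentage points (SD, n = 6). Peaks with a background over 5 times the lowest level made up 0.250% of the pooled peaks in dense windows, beside 0.151% in the others. They lay in only 37 of the 241 dense windows. Of the 149 such peaks there, 49 were in chr7:59000001-60000000 and 32 in chr1:85000001-86000000, so the higher share is not a trait of dense windows in general. With all such peaks removed before the windows were chosen, the difference was 0.478 percentage points, again with the exact permutation p of 0.03125. With lists of equal length it was 0.816, with 4 mice higher and 2 lower, and the exact permutation p was 0.1875 (0.4375 adjusted).

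The significant peaks were not evenly spread among dense windows. A dense window held a mean of 6.65 peaks with q of at most 0.05 over the 6 lists, and another window 3.97. The window chr7:59000001-60000000, the thirteenth densest, held 47 such peaks among 266. It also held 49 peaks with a background over 5, with a mean background of 3.58. The window chr1:85000001-86000000 held 33 significant peaks among 342, beside the high background given above. Across all windows sorted by density into 10 equal classes, the share with q of at most 0.05 was 2.36% in the sparsest class, 1.91 to 2.22% in the 8 between and 2.70% in the densest.

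The share of strong peaks did not follow the classes of density. With a fold of at least 10 as the limit, it was 0.281% in the sparsest class, 0.140 to 0.291% in the classes between and 0.167% in the densest. A fold of at least 10 was reached inside and outside dense windows by 0.0499 and 0.0577% of peaks in replicate 1 at 6 months and by 0.185 and 0.207% in replicate 2. At 15 months the shares were 0.192 and 0.216%, and 0.348 and 0.368%. At 21 months they were 0.178 and 0.191%, and 0.155 and 0.193%. The dense windows were lower in 6 of 6 mice, with a mean difference of -0.0208 ± 0.0104 percentage points (SD, n = 6). The choice of windows with many peaks favours this direction, so it is given as a description. It rested on few peaks, since the dense windows held 100 of them, in 32 windows. Without the 10 densest windows the mean difference was -0.00736 percentage points and 5 mice were lower, and without chromosome 1 it was -0.00792 with 3 mice lower and 3 higher. With windows of 2 Mb the difference was 0.00204. With only peaks of q at most 0.05 kept, both to choose the windows and to be compared, it was 12.8. That is a difference between shares of significant peaks and not of all peaks. With lists of equal length it was -0.0440, with 3 mice lower and 3 higher. Per window, dense windows held more of these peaks than the others, 0.415 beside 0.354.

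A peak counted as shared if it overlapped a peak of another mouse by at least 1 bp. In dense and other windows 16.6 and 12.6% of peaks were shared in replicate 1 at 6 months and 17.0 and 11.8% in replicate 2. At 15 months it was 16.4 and 11.1%, and 22.5 and 15.3%. At 21 months it was 15.5 and 11.9%, and 16.7 and 12.2%. The share in dense windows was greater by 4.95 ± 1.26 percentage points (SD, n = 6), and by 3.25 points when an overlap of at least 0.5 of the peak's length was required. A window with more peaks offers more for a peak to meet by position alone. The summed length of the peaks of the other 5 lists was 5.84 to 6.86% of the length of dense windows and 4.32 to 5.15% of the others. The ratio was 1.33 to 1.36. Stretches with peaks in several lists were counted once per list, so these shares exceed the base pairs covered. The ratio of the shared fractions was 1.31 to 1.47, and the part of peak length in it was not tested.

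The other measures moved little. Peaks in dense windows had a mean over mice of the median width of 259 bp, beside 255.8 bp, a difference of 3.17 ± 0.983 bp (SD, n = 6), wider in 6 of 6 mice. With lists of equal length this difference was 0.167 bp, with 3 mice wider and 3 narrower and an exact permutation p of 1. Median fold was 2.885 beside 2.879, higher in 2 mice and equal in 4. Median pileup, the height of the fragment stack at a summit, was 4.5 beside 4.33, higher in 1 mouse and equal in 5. Median background was 1.046 beside 1.037, higher in 4 mice and equal in 2. The adjusted exact permutation p of these last 3 measures was 0.583, 1 and 0.175.

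**Figure D4:**
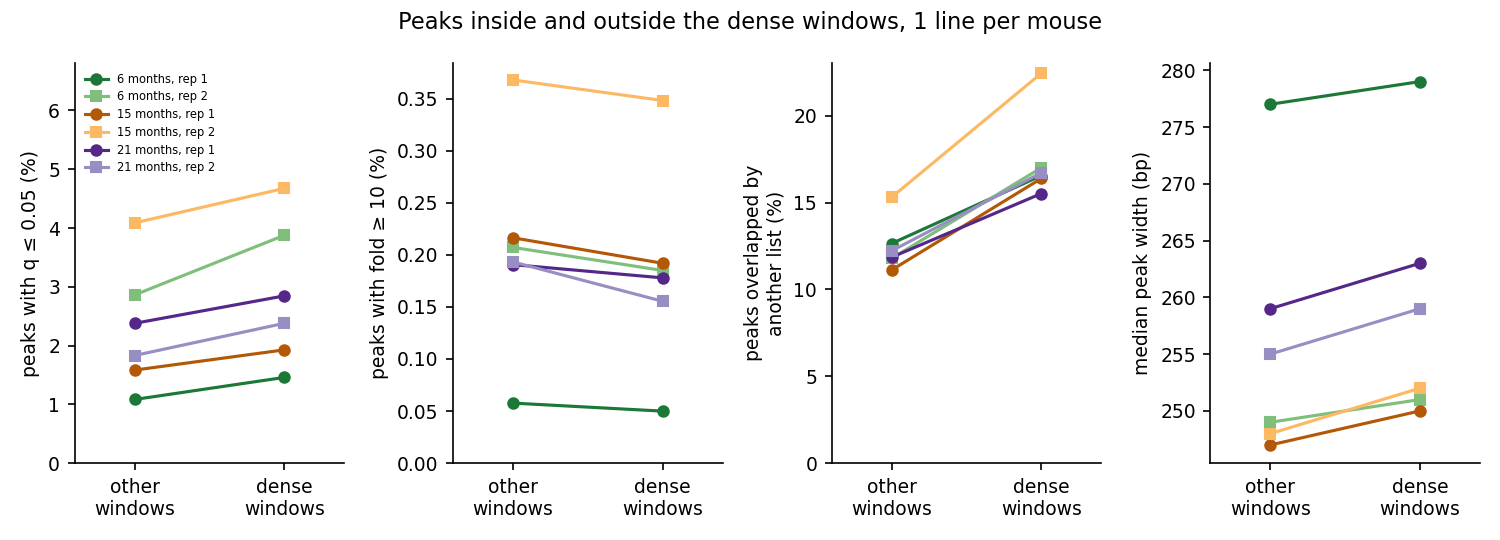
Share of peaks with q of at most 0.05, with fold of at least 10 and overlapped by another list (percent), and median peak width (bp, axis not from 0), outside and inside dense windows, with 1 line per mouse. The lines rise in 6 of 6 mice except for fold, where they fall in 6 of 6, and the mice lie farther apart than the ends of most lines.

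A few positions inside the dense windows carried a peak in nearly every mouse. Peaks of the 6 lists that overlapped by at least 1 bp were merged into 54023 regions in dense windows. Of these 52 had a peak in 5 or 6 lists and 18 in all 6, and they lay in 42 windows. That was 21.6 regions per 100 dense windows, beside 8.84 per 100 other windows, a count that also grows with the number of peaks in a window. The deposited text assigned no gene to any of the 52, and gene annotation of these positions in GRCm39 was not analysed here. Among the 52 the fold varied widely. The median over lists was at least 10 in 14 regions and under 3 in 9.

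The highest folds lay in windows near the threshold. The window chr3:19000001-20000000, the last but 1 to be included, holds chr3:19920765-19921295, whose fold was lowest in replicate 1 at 6 months, 111, and highest in replicate 1 at 15 months, 739. The window chr9:32000001-33000000, ranked 235, holds a pair of strong regions. At the first, chr9:32265566-32267737, the fold was 86.3 and 292 in the mice of 6 months, 450 and 281 in those of 15 months and 378 and 343 in those of 21 months. The second, chr9:32197937-32198540, was absent from replicate 1 at 6 months and lay between 156 and 320 in the other 5 mice. The first is 2172 bp wide with a median background of 6.94, so its enrichment stands on an input level well above that of the genome.

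A further 3 regions of this kind lay in other dense windows. At chr15:71609350-71609954 the fold was 43.2 and 189 in the mice of 6 months, 262 and 194 in those of 15 months and 187 and 256 in those of 21 months. At chr5:126997365-126997775 it was 25.9 and 270, then 139 and 69.9, then 231 and 261. At chr4:31229795-31230348 it was 13.8 and 62.5, then 43.2 and 27.4, then 64.8 and 44.4. In all 3 the lowest mouse was replicate 1 at 6 months, which differed from the other mouse of its age by more than the age means differed from each other. The median background was 1.00 at the chromosome 4 region and 4.31 at the chromosome 15 region. The regions chr6:65141350-65141903, chr4:90715687-90715975, chr7:36236395-36236838 and chr18:28291317-28292073 followed, with median folds of 34.9, 27.8, 28.1 and 18.5.

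A smaller set of recurrent regions had high input and low fold. At chr12:119992419-119992701 the background was a median of 78.3 times the lowest level and the fold 4.96. At chr7:59418207-59418579, in the window with 47 significant peaks, the background was 32.4 and the fold 1.66. At chr2:98497052-98497559 the background reached a median of 34017 and the fold was 1.35, in a window ranked 61. In all, 7 of the 52 regions had a median background over 5. They include the strong region chr9:32265566-32267737, with a background of 6.94 and a median fold of 317, so not all of them had a low fold. Recurrence between mice thus covered strongly enriched positions, positions where input itself was high and positions with weak peaks. Of the 52 regions, 19 had a q of at most 0.05 in every list with a peak there.

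The deposited text names a gene for few peaks, and it did so less often in dense windows. It assigned a gene to 3812 of 491681 peaks (0.775%), and these are genes with long annotation entries, not a sample of all genes. In dense and other windows a gene was named for 0.380 and 0.819% of peaks in replicate 1 at 6 months and for 0.418 and 0.889% in replicate 2. At 15 months the shares were 0.419 and 0.912%, and 0.572 and 0.911%. At 21 months they were 0.276 and 0.796%, and 0.447 and 0.884%. The dense windows were lower in 6 of 6 mice. They held 12.8% of all autosomal peaks and 6.33% of those with a named gene. Over the same classes of density, the share of peaks with a named gene was 1.25 to 1.42% in the 4 sparsest and 0.399% in the densest. This was not among the tested measures, and gene density of the windows was not analysed here.

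Of 387 autosomal genes named in the lists, 20 were named for a peak in a dense window. They lay in 19 windows, 7.88% of the dense windows, while 14.7% of the other windows held a named peak. The leading gene was Atg7, which encodes the enzyme that activates ubiquitin-like proteins for autophagy. Its 75 peaks were 12 and 19 in the mice of 6 months, 12 and 10 in those of 15 months and 9 and 13 in those of 21 months. They made up 28.2% of the 266 peaks of chr6:114000001-115000000, the twentieth densest window. They spread over 164 kb, no position had a peak in more than 3 lists, and 3 of the 75 had a q of at most 0.05. The same window held 6 peaks of Atp2b2, a calcium pump of the plasma membrane.

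Cd36, which encodes a fatty acid transporter used by muscle, had 32 of its 41 peaks in chr5:18000001-19000000. By mouse they were 6 and 8 in the mice of 6 months, 6 and 3 in those of 15 months and 3 and 6 in those of 21 months, and spread over 128 kb. No peak of Cd36 in the window had a q of at most 0.05, and the highest fold was 4.00. Both genes were thus counted through many scattered weak peaks, with no mouse at 0.

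Immune and nuclear receptor genes came next. Ccr7, a chemokine receptor that guides lymphocytes, had 16 peaks, with 3 and 3 in the mice of 6 months, 4 and 1 in those of 15 months and 1 and 4 in those of 21 months. Nr1h4, the bile acid receptor and like TRα a partner of retinoid X receptors, had 14, with 4 and 3, then 1 and 0, then 3 and 3. Zc3h12a, an RNase that degrades messenger RNAs of inflammation, had 13, with 2 and 3, then 4 and 1, then 0 and 3. None of these peaks had a q of at most 0.05. F2rl1, a receptor activated by proteases, had 6 peaks, of which 1 had a q of at most 0.05, with a highest fold of 5.39, and 4 lists had a peak at 1 of its positions. Ptgs2, which encodes cyclooxygenase 2, had 4.

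Genes of growth signals and transcription factors made up much of the rest. Fgf10, a fibroblast growth factor, had 10 peaks, Lef1, a transcription factor of Wnt signalling, 9, and Bmp4, a bone morphogenetic protein, 8. Ets1, a transcription factor, had 8 peaks in the chromosome 9 window with the pair of strong regions. Those regions carried no gene name, and the Ets1 peaks reached a fold of 3.96. Itgav, an integrin subunit, and Myo5a, a myosin that carries cargo, had 5 each, 4930544G11Rik had 6, Ctnnb1 (β-catenin) and Mfn2 (mitochondrial fusion) had 2 each, and Epha4 and Gata3 had 1 each.

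No gene of the lists for thyroid hormone response or signalling was named in a dense window. Of a list of 21 genes of the thyroid hormone response, 2 were named anywhere on the autosomes and 0 in dense windows. For 19 genes of thyroid hormone signalling the numbers were 3 and 0, for 22 genes of contraction and calcium handling 4 and 0, and for 17 genes of insulin and energy use 12 and 0. Of 20 genes of Wnt and BMP signalling 13 were named and 1, Bmp4, lay in a dense window. The lists of growth factor receptors, receptors of neurons and inflammation had 16, 11 and 8 named genes and 0 in dense windows. These lists do not hold every gene of their theme, so the counts depend on what was listed. Lef1, Ctnnb1, Ccr7, Zc3h12a, Ptgs2, Cd36 and Mfn2, described above, were named in dense windows and are on none of the lists. Of all named autosomal genes 5.17% were in dense windows. Most peaks carry no name, so a gene without a named peak may still have peaks in these windows.

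The share of peaks in the dense windows was similar at the 3 ages. It was 13.2 and 12.4% in the mice of 6 months, 12.1 and 14.1% in those of 15 months and 13.1 and 12.7% in those of 21 months, means of 12.8 ± 0.559, 13.1 ± 1.42 and 12.9 ± 0.307% (SD, n = 2). The ages overlapped, and the largest gap was between the mice of 15 months. Pearson's r with age was 0.0888 over 6 mice, with a two-sided exact permutation p of 0.889 over the 90 ways to assign the ages, and Spearman's rho was 0 with an exact permutation p of 1. In windows chosen without the mouse measured, the shares were 12.0 ± 0.232, 11.7 ± 0.307 and 11.9 ± 0.0574% (SD, n = 2). Pearson's r was then -0.320 with an exact permutation p of 0.578, and rho was -0.239 with an exact permutation p of 0.711. The adjusted p of the 2 relations was 0.889 for both r and 1 for both rho. Leaving out the 2 mice farthest from the median age, those of 6 months, r was -0.149 and 0.608, so neither value of r kept its sign and no trend with age was detectable in 6 mice.

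**Figure D5:**
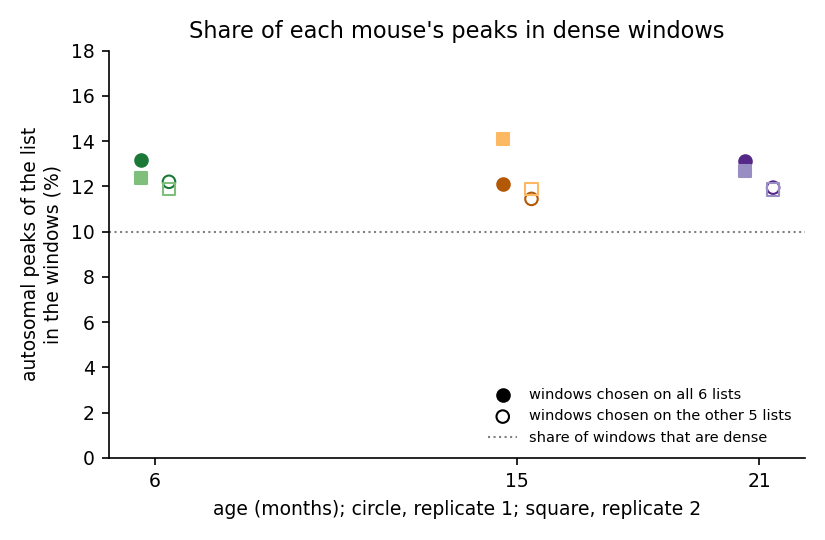
Percentage of each mouse's autosomal peaks in dense windows against age in months, for windows chosen on all 6 lists (filled) and on the other 5 (open), with circles for replicate 1, squares for replicate 2 and a dotted line at the 10% of windows. Filled points lie between 12.1 and 14.1% and open points between 11.4 and 12.2%, with the ages overlapping.

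Window by window, no dense window passed the test between ages. limma was fitted to log2 of the peaks of a window, with 0.5 added, per autosomal peak of its list, over 2408 windows, which include all 241. At an adjusted p under 0.05 it called 0 of all windows (0%) and 0 dense windows in each of the 3 comparisons. The lowest limma adjusted p over all windows was 0.813 for 15 against 6 months, 0.994 for 21 against 6 and 0.578 for 21 against 15. The median SE of a dense window's log2 difference was 0.251 over 6 mice. The calls depended on replicate 1 at 15 months. Without it, limma called 55 windows for 15 against 6 months (2.28% of all windows, with 7 dense windows, 2.90%) and 123 for 21 against 15 months (5.11%, with 10 dense windows, 4.15%). The age of 15 months then stood on the shortest list alone, which limma assumed to vary like the others.

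At an unadjusted p under 0.05, limma had 7 dense windows higher and 4 lower at 15 than at 6 months, where 2.87% and 3.03% of all windows were called. At 21 against 6 months it had 3 higher and 0 lower, with 1.08% and 0.623% of all windows. At 21 against 15 months it had 6 higher and 4 lower, with 3.53% and 3.03%. In the same order, the shares among the 241 windows were 2.90 and 1.66%, 1.24 and 0%, and 2.49 and 1.66%. The higher shares were near these backgrounds or below them, and the lower shares were all below them. With 0 to 7 windows in each, the counts are too few to tell the shares from the backgrounds. The lowest p among dense windows belonged to chr15:49000001-50000000, with a log2 difference of 0.83 between 21 and 15 months and a limma adjusted p of 0.578. The median log2 difference of dense windows, beside that of all windows, was 0.0326 and 0.00346 at 15 against 6 months, 0.0161 and 0.00705 at 21 against 6, and -0.0213 and -0.0105 at 21 against 15. The 3 comparisons share mice.

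Counts of windows in which the mice of 2 ages did not overlap were of the same kind. At 15 against 6 months 31 dense windows (12.9%) were higher in both mice and 39 (16.2%) lower, beside 15.8% and 17.2% of all windows. At 21 against 6 months it was 43 (17.8%) and 38 (15.8%), beside 16.2% and 16.9%. At 21 against 15 months it was 41 (17.0%) and 33 (13.7%), beside 17.5% and 17.1%. Among the 10 densest windows the log2 differences ran from -0.15 to 0.41 at 15 against 6 months, from -0.49 to 0.21 at 21 against 6 and from -0.66 to -0.02 at 21 against 15. All 10 were lower at 21 than at 15 months, the lowest limma adjusted p among them was 0.716, and replicate 2 at 15 months, the shortest list, was the highest mouse in 8 of the 10.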

How the data were processed

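Peak lists of TRα ChIP-seq from 6 mice were analysed, 2 per age. The tools named per the submitters' processing notes are MACS2 2.1.1.20160309, HOMER 3, Trimmomatic 0.36 and SAMtools 1.3.1, with the builds GRCm39 and mm10. An aligner and settings are not given in the sources used. The scaffolds in the deposited lists carry GRCm39 versions, and coordinates are given in that build, counted from 1. Peaks were called mouse by mouse against input, as the deposited peak names show.

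The deposited pileup is a signal and gives the height of the fragment stack at a summit. The deposited fold is a ratio and sets the pileup against local input. As deposited, p and q are on the −log10 scale, and no list went below 2.00 for −log10 p. These are the authors' own values for single peaks. The browser-format lists held the same 491681 peaks as the tables, with 0 differing. Read totals were not used here, so list lengths stand in for depth, and a missing peak does not show absence of binding.

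Local background was computed as (pileup + 1) / fold − 1 and divided by the lowest value of its list. Gene names came from annotation text in the deposited tables, through a GRCm38.p6 table used for names only. The tests were two-sided exact permutation tests over mice, and limma 3.58.1 (R 4.3.3) with its trend option, on windows with at least 30 peaks over the 6 lists, with Benjamini-Hochberg adjustment at 0.05. Python 3.11.15, pandas 2.3.3, NumPy 2.4.6 and SciPy 1.17.1 were used, and the statistics were tested on simulated data. The text names the 10 densest windows, 3 on each side of the threshold, the genes named in a dense window, of which 1 is not reported here, and recurrent regions ranked by mean within-list rank of fold, with some lower ones singled out after their values were seen. The windows and gene lists were chosen with earlier results of these data known. Alternatives covered peak thresholds, list length, window size and position, the percentage of windows kept, high-background peaks, the pseudocount, the overlap, each mouse left out and the replicate block. Sequences, base composition and annotation of the windows were not analysed here.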

Additional observations from a re-analysis of the deposited data

How the results depend on the processing

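The held-out excess was above 1 in every mouse under each setting tried. Leaving out each mouse in turn gave mean log2 ratios of 0.258 to 0.287, with an exact permutation p of 0.0625, the smallest that 5 mice allow. Pearson's r of the share with age changed sign with peaks of q at most 0.05 (-0.172), with windows moved by 0.5 Mb (-0.0317) and with windows chosen on the other 5 lists (-0.320), and it ran from -0.157 to 0.158 when a mouse was left out. The difference in median fold changed sign with peaks of pileup at least 5 (-0.0519) and with lists of equal length (-0.113). The difference in median background did so with lists of equal length (-0.00913), and ran from -0.00240 to 0.0171 when a mouse was left out, with the negative value without replicate 2 at 15 months. The difference in the share of peaks with fold of at least 10 changed sign with peaks of q at most 0.05 (12.8 percentage points) and with windows of 2 Mb (0.00204). With lists of equal length, the difference in width was 0.167 bp, with an exact permutation p of 1. That in the share of peaks with q of at most 0.05 was 0.816 percentage points, with an exact permutation p of 0.1875. That in the share with fold of at least 10 was -0.0440. Each of them had mice on both sides of 0. The cause of these changes was not tested. Leaving out a mouse gave 0 to 55 windows called by limma for 15 against 6 months and 0 to 123 for 21 against 15 months, with every call in the absence of replicate 1 at 15 months. limma called 0 windows in all other settings run, while 142, 41 and 158 windows had an unadjusted p under 0.05 for 15 against 6, 21 against 6 and 21 against 15 months. The limma fit on peaks of q at most 0.05 was not run, since 4 windows had 30 such peaks.

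The windows themselves depended on the peaks used. Of the 241, 140 were also chosen from peaks of pileup at least 5, 102 from lists of equal length and 236 without peaks of high background, and 175 to 210 when a mouse was left out, fewest without replicate 2 at 15 months. Leaving out the 10 densest windows or chromosome 1 was chosen after seeing the data. Replicate numbers pair no animals in the labels. Same-numbered mice had deviations from their age means that correlated across windows at 0.0655, 0.124 and 0.0421. With the replicate block, limma called 0 windows in each comparison, and r of the share with age stayed at 0.0888 with an exact permutation p of 0.944. Peaks are few in the list of replicate 2 at 15 months, with a median of 11 per window, which limits what a single window can show there.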
